A study of Mus musculus with 40 samples.

Results

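The 78 genes described here encode proteins of the mitochondrial ribosome and were chosen by name alone, as every symbol in the expression table that begins with Mrpl (49 genes) or Mrps (29 genes) followed by a digit, out of 21950 genes in all. No symbol of a pseudogene had to be left out. All 78 passed the filter on low values (10 or more normalized counts in 3 or more libraries) and were tested.

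The mitochondrial ribosome, or mitoribosome, translates the few messenger RNAs of the mitochondrial genome, all of which encode subunits of the respiratory chain and of ATP synthase. Its ribosomal RNAs are transcribed inside the organelle, whereas its proteins are encoded in the nucleus, made in the cytosol and imported. Mrpl proteins belong to the large subunit, which forms peptide bonds, and most Mrps proteins to the small subunit, which reads the messenger. Some have counterparts in the bacterial ribosome and others are found only in mitochondria. T cells that leave quiescence build up mitochondrial mass and respiration, which needs translation on mitoribosomes.

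RNA-seq libraries came from 8 groups of mouse T cells, 3 from each. Conventional CD4 T cells (Tconvs) and thymus-derived regulatory T cells (tTregs, labelled nTreg) were profiled at rest and after activation. Induced regulatory T cells (iTregs) were profiled at rest, after restimulation, and after restimulation with an inhibitor of the calcium channel ORAI or with cyclosporin A (CsA), which blocks calcineurin. The cells came from the spleens of Foxp3 reporter mice on a C57BL/6 background. The study used a Foxp3-GFP line for Tconvs and tTregs, and either a Foxp3-GFP or a Foxp3-RFP line for iTregs. Its text does not say which reporter line gave the iTreg libraries used here. Per the study's methods, Tconvs and tTregs were taken from mice a few months old, and iTregs were made from naive CD4 T cells of younger mice with antibodies to CD3 and CD28, TGF-β and IL-2, sorted by the Foxp3 reporter, rested, and restimulated on plate-bound antibodies to CD3 and CD28. The ORAI inhibitor is CM-4620 in the study's text and only an ORAI inhibitor in the labels, and the CsA libraries carry the cell type Treg rather than iTreg. Nothing says that replicates were separate cultures or animals, so that p-values measure only the spread between these libraries, which may be technical. Age of the donor mice, culture, cell type and, if it differed, reporter line cannot be told apart in comparisons of iTregs with the other cells.

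Each library held between 5256800 and 15685234 reads on genes, and 3 reads, taken as the floor, were worth 2.12 to 5.45 normalized counts. Foxp3, the defining factor of regulatory T cells, averaged 10.4 normalized counts in resting Tconvs, 7537 in resting tTregs and 1280 in resting iTregs, and Ikzf2, enriched in thymus-derived Tregs, averaged 9403 in resting tTregs and 167 in resting iTregs, so the cell labels held. Of the B cell markers Ms4a1 was at 0 in all 24 libraries, although Cd79b averaged 124 in resting tTregs and at most 32 in iTreg groups. The NK markers Ncr1 and Klrb1c were at 0 in all groups except Tconvs, the myeloid markers Lyz2, Csf1r, Itgam and Itgax stayed at or below 13.2, and Cd68 reached 109. Of the CD8 T cell markers Cd8a stayed at or below 13.2. Cd8b1 lay between 93.0 and 234 in all libraries and averaged 229 in resting Tconvs, 155 in resting tTregs and 103 in resting iTregs. A value is called a normalized count throughout: a gene's reads divided by 1 size factor per library.

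Promoters of 5 members are shown because the results turn on these genes: Mrps6 rose most on activation, Mrpl17 differed most in activation response between Tconvs and tTregs, Mrps24 varied most between libraries of 1 group, Mrps30 was the member lowest in tTregs, and Mrpl24 ran against the other members. The sequences are from RefSeq on GRCm38.p6, written 5′ to 3′ on the strand of the gene, from 250 bases before to 50 bases after the start of the gene. Capitals mark a match to 1 of 4 motifs that occur in many promoters of nuclear genes for mitochondrial proteins: GCGCATGCG (bound by NRF1), CCGGAAG (bound by ETS factors), AAGATGGCG (bound by YY1) and the E-box CACGTG (bound by MYC and related factors), searched on both strands.
Mrps6: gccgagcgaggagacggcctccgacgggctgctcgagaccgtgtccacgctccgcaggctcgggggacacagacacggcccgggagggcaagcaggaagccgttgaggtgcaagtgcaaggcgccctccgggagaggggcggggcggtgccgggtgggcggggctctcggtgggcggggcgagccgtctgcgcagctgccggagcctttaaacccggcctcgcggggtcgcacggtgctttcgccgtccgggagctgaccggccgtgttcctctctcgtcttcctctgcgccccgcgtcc
Mrpl17: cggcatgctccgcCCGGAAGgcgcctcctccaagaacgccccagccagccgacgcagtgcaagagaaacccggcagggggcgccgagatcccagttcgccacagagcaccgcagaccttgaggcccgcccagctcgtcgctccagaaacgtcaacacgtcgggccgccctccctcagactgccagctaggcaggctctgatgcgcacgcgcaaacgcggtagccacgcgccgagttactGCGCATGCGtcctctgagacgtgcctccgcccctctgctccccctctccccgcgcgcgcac
Mrps24: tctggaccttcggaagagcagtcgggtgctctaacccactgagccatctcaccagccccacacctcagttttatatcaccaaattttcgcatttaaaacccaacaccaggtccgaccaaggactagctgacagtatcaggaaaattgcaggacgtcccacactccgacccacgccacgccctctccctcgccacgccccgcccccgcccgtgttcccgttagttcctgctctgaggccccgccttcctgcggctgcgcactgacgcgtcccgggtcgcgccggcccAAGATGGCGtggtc
Mrps30: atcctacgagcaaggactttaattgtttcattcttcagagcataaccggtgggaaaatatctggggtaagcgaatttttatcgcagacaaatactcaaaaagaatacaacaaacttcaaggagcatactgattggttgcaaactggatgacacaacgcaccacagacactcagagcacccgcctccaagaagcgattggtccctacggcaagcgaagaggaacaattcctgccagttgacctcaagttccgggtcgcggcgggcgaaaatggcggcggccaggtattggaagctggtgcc
Mrpl24: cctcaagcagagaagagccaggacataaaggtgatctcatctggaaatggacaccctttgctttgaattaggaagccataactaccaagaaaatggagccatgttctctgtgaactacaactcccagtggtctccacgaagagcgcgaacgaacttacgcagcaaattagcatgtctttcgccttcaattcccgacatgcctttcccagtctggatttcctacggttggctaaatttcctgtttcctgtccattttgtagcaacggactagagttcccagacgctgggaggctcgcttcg

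The windows lie at chr16:92058086-92058385 on the plus strand (Mrps6), chr7:105811038-105811337 on the minus strand (Mrpl17), chr11:5707652-5707951 on the minus strand (Mrps24), chr13:118387203-118387502 on the minus strand (Mrps30) and chr3:87919294-87919593 on the plus strand (Mrpl24). The Mrpl17 window held an NRF1 and an ETS match, the Mrps24 window a YY1 match, and the windows of Mrps6, Mrps30 and Mrpl24 none of these letters. A RefSeq promoter was matched for 69 of the 78 members. The ETS letters were present in 25 of these 69 promoters (36.2%), against 19.5% of the promoters of 9227 other tested genes and 9.12% of all 27025 promoters, but also in 25 of 66 promoters of cytosolic ribosomal protein genes (37.9%). The YY1 letters were present in 8 (11.6%, against 3.36% and 1.49%), the NRF1 letters in 7 (10.1%, against 3.92% and 1.81%) and the E-box in 5 (7.25%, against 10.3% and 7.24%). In the cytosolic ribosomal protein promoters these shares were 6.06%, 3.03% and 7.58%. In all, 37 of the 69 held at least 1 of the 4 motifs, 53.6% against 32.7% of the other tested genes. These are descriptions of the letters and not of binding.

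Summed over the 78 members, resting Tconvs and tTregs had the lowest levels and iTregs the highest. The sum was 36662 ± 345 normalized counts (mean ± SD, n = 3, as in all groups) in resting Tconvs and 57239.7 ± 2135 in activated Tconvs. It was 30967 ± 1043 in resting and 40035 ± 2496 in activated tTregs. Resting iTregs had 59396 ± 5519, with 64836, 59551 and 53801 in replicates 1, 2 and 3, and the restimulated iTregs had 63663 ± 675 without inhibitor, 63764 ± 1667 with CM-4620 and 64766 ± 745 with CsA. On this scale all libraries of resting tTregs lay below those of resting Tconvs, and all libraries of the other groups above them. The 3 restimulated iTreg groups overlapped with each other, and the resting iTregs spread more widely than any of them.

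The scale matters for the tTregs. As CPM, which brings every library to the same total of reads on genes, the sum was 3504 ± 17.6 in resting Tconvs and 3547 ± 149 in resting tTregs, so that the deficit of resting tTregs on the normalized scale (0.845 of the resting Tconv mean) was not seen in CPM (1.01 of it). On the same scale activated Tconvs reached 5194 ± 138, activated tTregs 4211 ± 222, resting iTregs 5463 ± 436 and restimulated iTregs 5771 ± 45.8. The order of the other groups was the same on both scales.

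**Figure D1:**
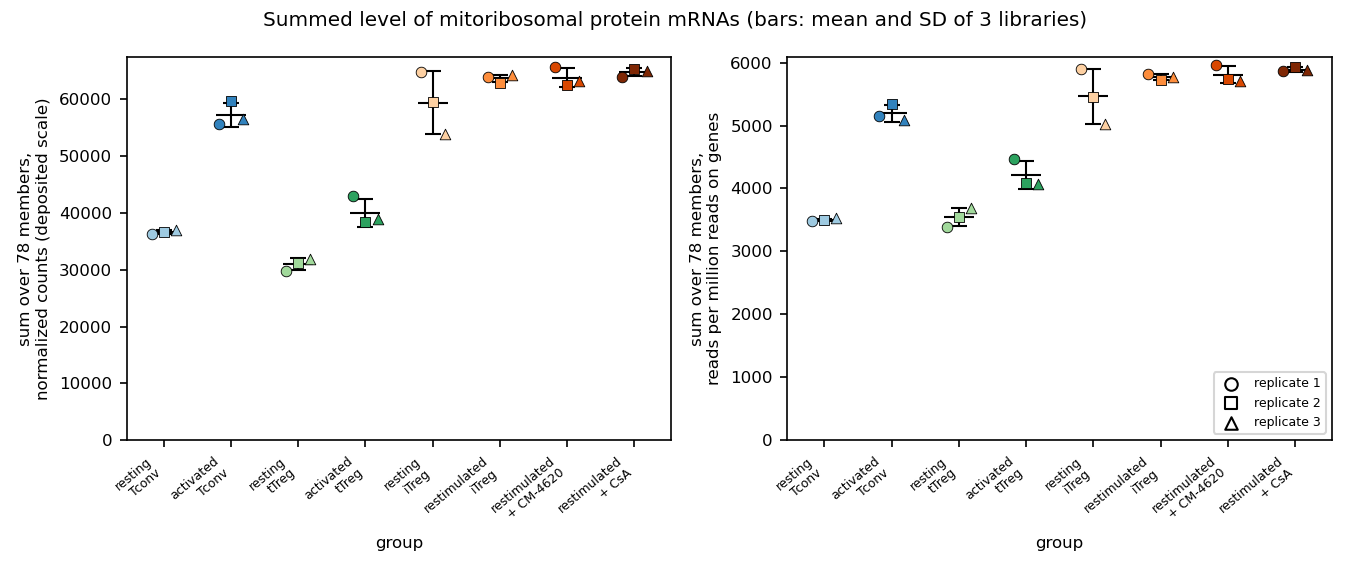
Sum over the 78 members in each library (points, shaped by replicate number) with the mean and SD of 3 libraries, on the deposited scale of normalized counts at the left and as CPM at the right. On both scales the activated Tconvs and the 4 iTreg groups lay above the resting Tconvs and resting tTregs, and only on the left did resting tTregs lie below resting Tconvs.

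Gene by gene on the normalized scale, the lowest group mean was that of resting tTregs in 44 members and of resting Tconvs in 23, where these groups were lowest for 17.1% and 22.7% of all 11725 genes tested. The highest mean was in CsA-treated iTregs for 26 members, activated Tconvs for 17, restimulated iTregs for 13 and CM-4620-treated iTregs for 12. Most members kept a narrow range: the highest group mean was 2.48 times the lowest in the median member, from 1.29 times in Mrpl9 to 27.3 times in Mrps30. The ratio of summed Mrpl to summed Mrps levels moved little outside tTregs. It follows the symbols, so Mrps18a and Mrps30, which sit in the large subunit, count with Mrps. Mrps30 averaged 36.1 normalized counts in resting tTregs against 596 in resting Tconvs, Mrps24 167 against 580 and Mrps26 262 against 577. Low values of these genes raise this ratio. The balance of the subunits with Mrps18a and Mrps30 moved to the large subunit was not computed. The summed Mrpl level was 1.81 times the summed Mrps level in resting Tconvs (SD 0.026, n = 3), and between 1.80 and 1.82 times in activated Tconvs and the 4 iTreg groups. It was higher in tTregs, at 1.98 times at rest (SD 0.169) and 1.92 times after activation (SD 0.032). The resting tTreg libraries had ratios of 2.17, 1.90 and 1.86 in replicates 1, 2 and 3.

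Most members shared a profile across the groups. Over the 8 group means the Pearson correlation between members had a median of 0.81 across 3003 pairs, which share the same libraries and scaling and are given as a description. The most alike pair was Mrpl40 with Mrps14 (0.998), followed by Mrpl10 with Mrpl20 and Mrpl12 with Mrpl20. Mrpl24 stood apart. Its correlation with the mean of the other members was -0.66, the next lowest was that of Mrpl38 (-0.39), and the least alike pair was Mrpl24 with Mrpl43 (-0.90). Levels were also divided by the merged length of all annotated exons of each gene. This length covers every annotated isoform and is not that of 1 transcript, so the order also depends on the annotation. The highest over all libraries were Mrpl18 (1066 normalized counts per kilobase of exon), Mrpl54 (947), Mrps21 (821), Mrpl34 (799) and Mrpl28 (798). The lowest were Mrpl3 (46.3), Mrpl47 (50.6), Mrps10 (53.0), Mrpl48 (54.2) and Mrps31 (76.0).

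**Figure D2:**
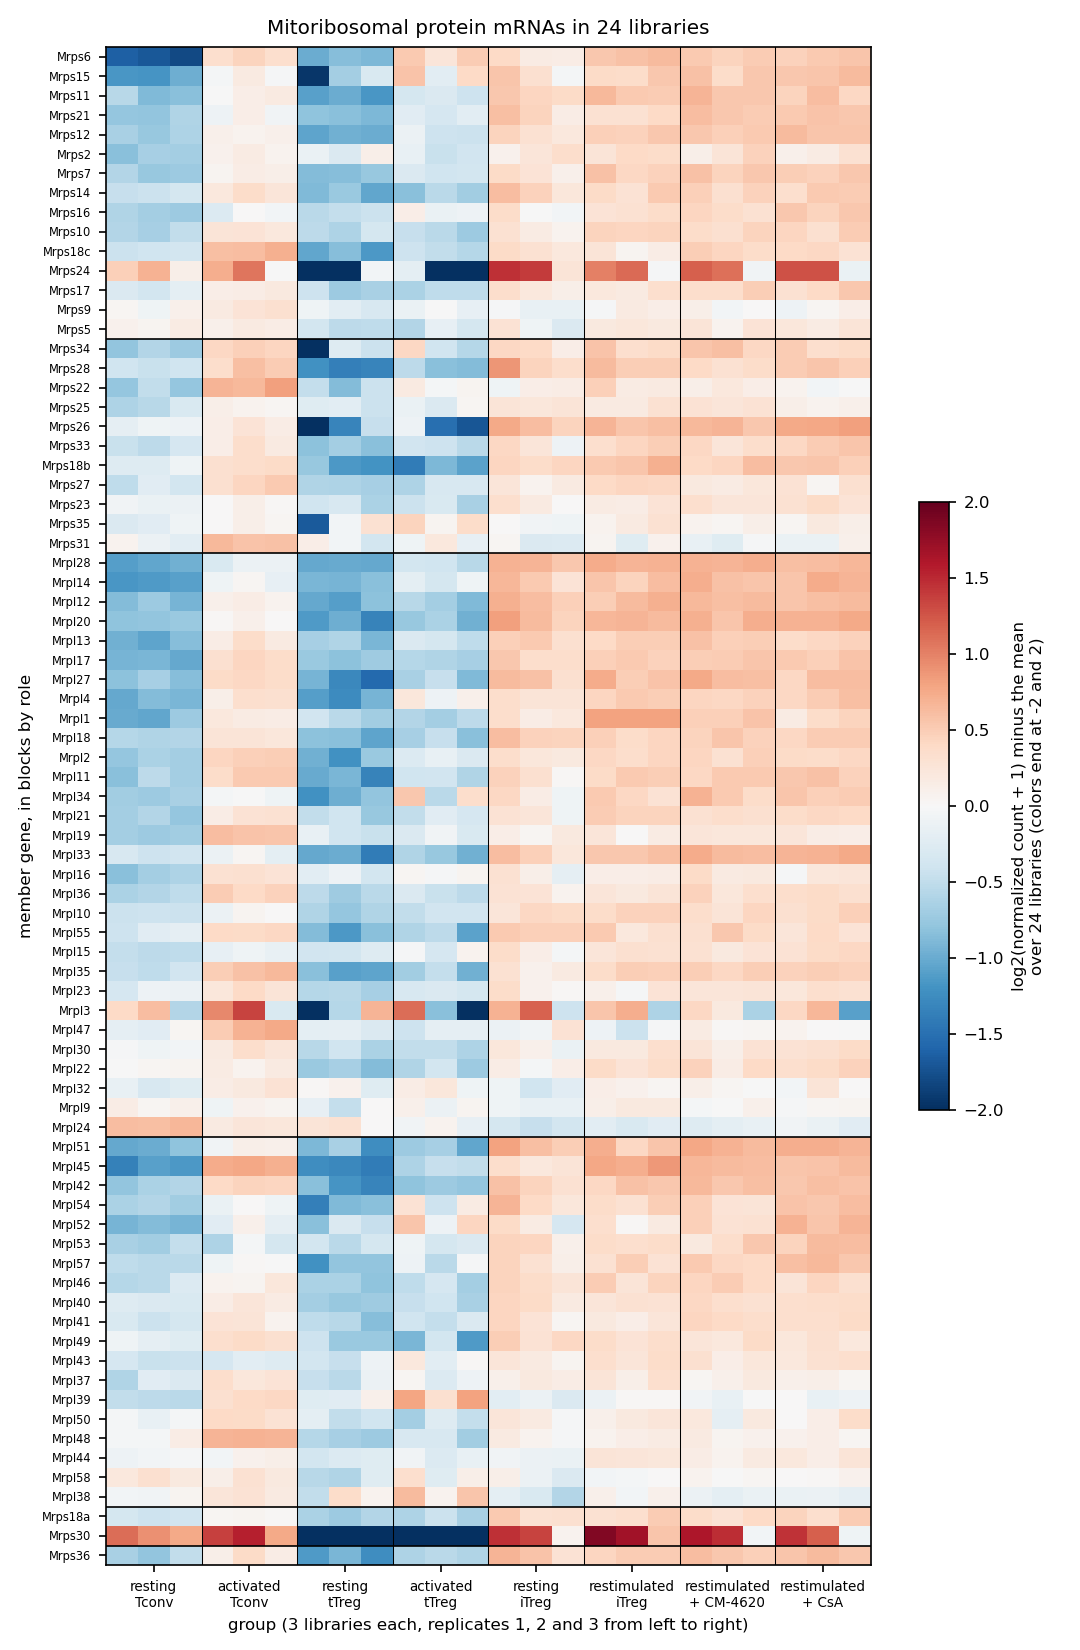
Level of each of the 78 members (rows, in blocks by role) in each of the 24 libraries (columns), as log2(normalized count + 1) minus the member's mean over all libraries. Most rows are low in resting Tconvs and in tTregs and high in activated Tconvs and iTregs. Mrpl24 and Mrpl38 run against this pattern (correlations of -0.66 and -0.39 with the mean of the other members), and Mrpl39 and Mrps31 follow it weakly (0.03 and 0.15). Mrps30, Mrps24, Mrpl3 and Mrps26 stand out by very low tTreg values or by wide spread between replicates.

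Activation of Tconvs raised most members. A gene is called here where its adjusted p is under 0.05 and its log2 fold change exceeds 0.5 in size. Of the 78 members 52 rose and 0 fell, where 24.8% of all tested genes rose and 25.5% fell. The median log2 change of the members was 0.68, a 1.60-fold rise, against -0.03 over all genes tested. Both subunits took part: 11 of the 15 small-subunit proteins with bacterial counterparts and 8 of 11 without rose, as did 20 of 30 and 12 of 19 in the large subunit. Cells were sequenced in bulk, so more mRNA per cell and more cells with the mRNA cannot be told apart.

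Mrps6, whose bacterial counterpart lies at the edge of the small subunit platform, rose most (chr16:92058270-92112227, GRCm38). It had 272, 259 and 239 normalized counts in resting Tconvs and 1063, 1145 and 1063 in activated Tconvs. All activated libraries lay far above all resting ones, and the log2 change was 2.09 ± 0.08 (SE, adjusted p = 2.52e-15). Mrpl45, which lies at the exit of the peptide tunnel and holds the ribosome at the inner membrane, had 354, 421 and 405 at rest and 1504, 1543 and 1477 after activation, again without overlap, a log2 change of 1.94 ± 0.07 (SE, adjusted p = 7.51e-16). Mrps22, a small-subunit protein found only in mitochondria, went from 208, 251 and 208 to 567, 559 and 625, a change of 1.39 ± 0.11 (SE, adjusted p = 7.41e-10). Mrpl17 and Mrpl19, both large-subunit proteins with bacterial counterparts, rose by 1.33 ± 0.06 and 1.27 ± 0.08, the latter sharing 36.0% of its exon bases with Gcfc2 on the other strand, which unstranded reads cannot separate.

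Of the factor-binding stalk, Mrpl12 and Mrpl11 rose (0.95 and 1.15). Mrpl10, the protein to which Mrpl12 attaches, rose by 0.41 without overlap (adjusted p = 4.73e-05) and missed only the size limit. Mrps12 and Mrps16 of the small subunit rose by 0.76 and 0.57. Of the trio related to bacterial S18, Mrps18c rose by 1.04 and Mrps18b by 0.55. Mrps18a, which sits in the large subunit, rose by 0.42 without overlap (adjusted p = 0.000101) and missed only the size limit. Mrps36, which is also part of the 2-oxoglutarate dehydrogenase complex, rose by 0.86. Members with small changes that were not called were Mrps5 (0.04 ± 0.11), Mrpl44 (0.10 ± 0.07) and Mrpl58, the peptidyl-tRNA hydrolase that frees stalled ribosomes (-0.03 ± 0.12). Mrpl24, which joins the large subunit early in its assembly, had the lowest change, -0.41 (adjusted p = 7.89e-05), from 1458, 1445 and 1518 at rest to 1086, 1129 and 1120.0 after activation. These libraries did not overlap, but the change missed the size of 0.5, and 26.3% of the exon bases of Mrpl24 overlap Rrnad1 on the other strand. In all, 18 members share more than 10% of their exon bases with another gene.

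Other genes of mitochondrial translation moved in both directions. Of mitoribosomal proteins under other symbols, 3 of 5 rose (Chchd1 0.86, Aurkaip1 0.86, Dap3 0.73). Of translation factors 6 of 16 rose, led by Slirp (1.43), which stabilizes mitochondrial messengers, and Tsfm (1.27), the exchange factor of mitochondrial elongation factor Tu, and 1 fell (Mtrf1l -0.81). Of assembly and ribosomal RNA processing factors 8 of 25 rose and 1 fell, the methyltransferase Mrm1 (-1.27). Of mitochondrial aminoacyl-tRNA synthetases 7 of 17 rose and 1 fell, and of genes for mitochondrial DNA transcription and upkeep 1 of 8 rose, the elongation factor Tefm (0.65). The 13 mitochondrially encoded mRNAs had a median of -0.30. Cytosolic ribosomal protein genes, the counterpart in the cytosol, had 23 of 84 rising and 3 falling with a median of 0.20. All 10 proliferation markers rose, with a summed level of 3356 normalized counts at rest and 15794 after activation. The part of cell division in the rise of the members was not tested.

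In tTregs fewer members passed the same test. Activation raised 23 of 78 and lowered 0, where 13.0% of all genes tested rose and 10.2% fell. The median log2 change was 0.27, a 1.20-fold rise, against 0.00 over all genes. By role, 6 of 15 and 3 of 11 small-subunit and 7 of 30 and 6 of 19 large-subunit proteins rose. Mrps6 again rose most, from 421, 466 and 449.9 normalized counts at rest to 1213, 991 and 1193 after activation, a log2 change of 1.34 ± 0.08 (SE, adjusted p = 1.1e-10). Mrps15, a conserved small-subunit protein, followed with 155, 375 and 489 at rest and 890.1, 521 and 796 after activation, and its change of 1.23 ± 0.26 (SE, adjusted p = 0.000906) rested on a wide spread among the resting libraries, lying between 0.59 and 1.61 when single libraries or replicate numbers were left out. It was not called when only the tTreg libraries were fitted (limma, adjusted p = 0.0638). Mrpl4 (1.17 ± 0.09), Mrpl34 (1.11 ± 0.18) and Mrpl54 (1.03 ± 0.15) came next. Of the members set by role, Mrps12 (0.69), Mrps22 (0.66), Mrpl11 (0.62), Mrpl58 (0.54), Mrps18c (0.52) and Mrps36 (0.51) rose, the last 3 of them close to the size limit and not called after CPM scaling. Mrps16 (0.46, adjusted p = 0.000828) and Mrpl12 (0.27, adjusted p = 0.0184) missed only the size limit, and Mrps18b (-0.09) was not called. Cytosolic ribosomal protein genes had 36 of 84 rising in tTregs with a median of 0.46. Proliferation markers rose in 9 of 10, from a sum of 2785 to 6142 normalized counts. After CPM scaling 15 members rose, and the share of rises among all called genes was 36.9% in place of 56.1%.

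The difference between the responses was tested as an interaction of cell type and activation. Of the 78 members, 26 responded more in Tconvs and 1 more in tTregs, where 18.1% and 18.6% of all genes tested did. The median difference was 0.34 on the log2 scale against -0.05 over all genes, and 61 members lay above 0. Large-subunit proteins with bacterial counterparts gave 13 of the 26. Mrpl17 had 439, 442 and 411 normalized counts in resting and 1042, 1131 and 1079.7 in activated Tconvs, but 499.8, 475 and 511 in resting and 563, 549 and 529 in activated tTregs. The activated tTregs lay just above the resting ones and far below the activated Tconvs, and the difference of responses was 1.19 ± 0.09 (SE, adjusted p = 5.74e-10). Mrpl1, a protein of the mobile stalk where spent tRNA leaves, went from 155, 151 and 189 to 362, 349 and 345 in Tconvs, and in tTregs from 239, 214 and 192 to 207, 195 and 218, a difference of 1.15 ± 0.14 (SE, adjusted p = 8.77e-07). Resting and activated tTregs overlapped for this gene while Tconvs did not. Mrpl45 (1.16 ± 0.10) rose in both cell types but more in Tconvs. Mrpl19 (1.16 ± 0.12) and Mrps2 (1.05 ± 0.16) rose in Tconvs and changed by 0.11 and -0.22 in tTregs. Mrps22, Mrpl12, Mrps18b, Mrpl11 and Mrps18c also differed, by 0.52 to 0.73.

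Mrpl58 was the 1 member called with the larger response in tTregs by limma. It had 1063, 1149 and 1056 in resting and 1002, 1146 and 1053 in activated Tconvs, and 628, 607 and 784 in resting and 1159, 782 and 1004 in activated tTregs, a difference of -0.57 ± 0.17 (SE, adjusted p = 0.0082). Resting tTregs were the low group, and replicate 2 of the activated tTregs fell within their range. It was not called in edgeR (-0.49), which called 31 members, all with the larger response in Tconvs, nor without replicate 1 (-0.37). Among related genes, the difference of responses was called for 4 higher and 15 lower of 84 cytosolic ribosomal protein genes (median -0.21), opposite in sign to the members, and for 6 of 10 proliferation markers, all higher in Tconvs.

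**Figure D3:**
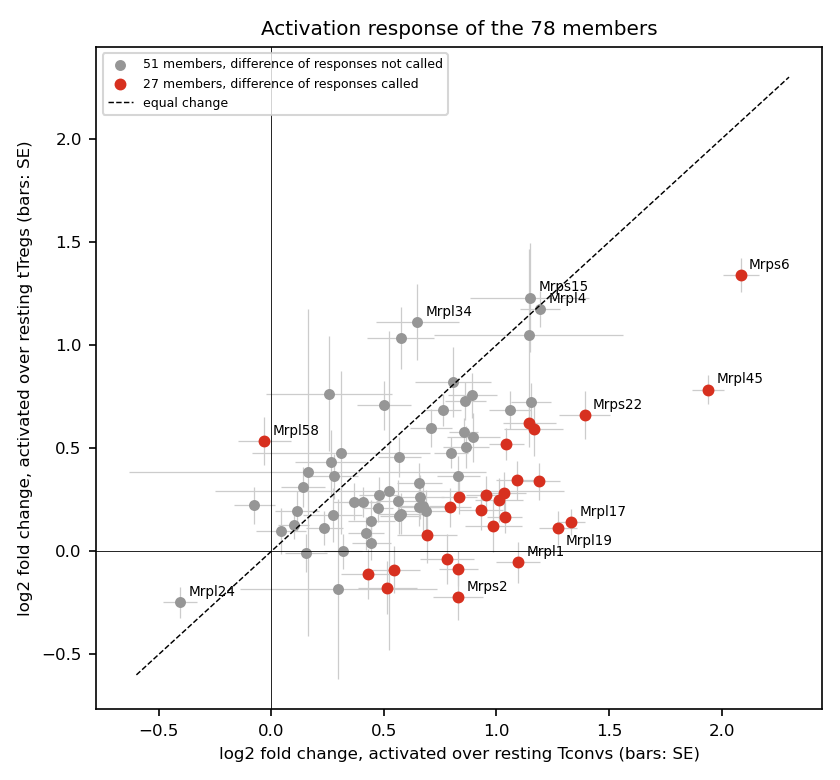
Log2 fold change on activation of each of the 78 members in Tconvs (horizontal) and tTregs (vertical), with SE, red where the difference of the responses was called. Most points lie below the dashed line of equal change, and Mrpl58 is the red point above it.

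At rest, tTregs differed from Tconvs in 15 members, of which only Mrps30 was far below in every library. The test called 2 members higher and 13 lower in tTregs, where 20.9% and 18.5% of all genes tested were higher and lower. The lower share was thus near the background at this size limit. With adjusted p alone 9 members were higher and 42 lower, against 3227 and 3180 of all genes tested. The median was -0.27 on the normalized scale. After CPM scaling it was -0.01, with 7 members higher and 7 lower, under a scaling that put the median of all genes at 0.24 and the share of higher among all called genes at 74.3% in place of 53.0%. Mrps30, which in spite of its symbol belongs to the large subunit (chr13:118378381-118387252, GRCm38), had 675, 588 and 524 normalized counts in resting and 800.0, 915 and 528 in activated Tconvs. In tTregs it had 29.0, 42.8 and 36.4 at rest and 35.0, 28.4 and 30.9 after activation, and in resting iTregs 856, 796 and 326. All 6 tTreg libraries were thus far below all 18 others, by a log2 difference of -4.02 ± 0.44 (SE, adjusted p = 9.07e-08) between the resting cells, and the lowest tTreg library still held 17 reads. Activation gave no called change in either cell (0.30 ± 0.44 in Tconvs and -0.18 ± 0.44 in tTregs).

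Mrps24, the counterpart of a bacterial small-subunit protein at the entry of the messenger channel, had 592, 688 and 459.9 in resting Tconvs and 18.1, 74.0 and 408 in resting tTregs. Its difference of -2.78 ± 0.79 (SE, adjusted p = 0.00526) rested on tTreg libraries that differed widely among themselves, of which replicate 3 lay close to the lowest Tconv library. The range over single libraries and replicate numbers left out was -4.08 to -1.69, and the call was lost without replicate 1, without replicate 2 and in DESeq2 (-1.80, adjusted p = 0.0533). Mrps26, a small-subunit protein found only in mitochondria, had 553, 593 and 585 in resting Tconvs and 79.8, 250.4 and 457 in resting tTregs, without overlap but again widely spread, with a difference of -1.46 ± 0.40 (SE, adjusted p = 0.00369) that lost its call without replicate 2. Mrps28 (from 161, 157 and 161 to 91.6, 81.7 and 84.3, -0.89 ± 0.12) and Mrps18b (-0.84 ± 0.11) were lower with little spread. Of the members set by role, Mrpl58 (-0.70), Mrps18c (-0.61) and Mrps5 (-0.57) were also lower, though not called after CPM scaling. Mrps6 (0.80 ± 0.08) and Mrps2 (0.62 ± 0.11) were the members higher in resting tTregs.

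Related genes moved in both directions, here on the normalized scale. Cytosolic ribosomal protein genes were lower in 69 of 84 and higher in 2 (median -0.81), and mitochondrially encoded mRNAs were lower in 11 of 13. Of assembly factors 6 of 25 were lower and 2 higher, led by Mpv17l2 (-2.99), Rbfa (-2.59), which matures the small-subunit ribosomal RNA, and Noa1 (-1.86), a GTPase of small-subunit assembly. Of translation factors 2 of 16 were lower, Lrpprc (-2.05), the partner of Slirp in stabilizing mitochondrial messengers, and Mtrf1 (-0.91), and 1 was higher (Tsfm 0.60), with a median of -0.05. Aminoacyl-tRNA synthetases had 5 higher, led by Lars2 (1.67), and 3 lower, led by Cars2 (-1.02), of 17. Of genes for mitochondrial DNA transcription and upkeep 1 of 8 was higher (Tefm 0.61), and the 5 mitoribosomal proteins under other symbols had a median of -0.06.

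**Figure D4:**
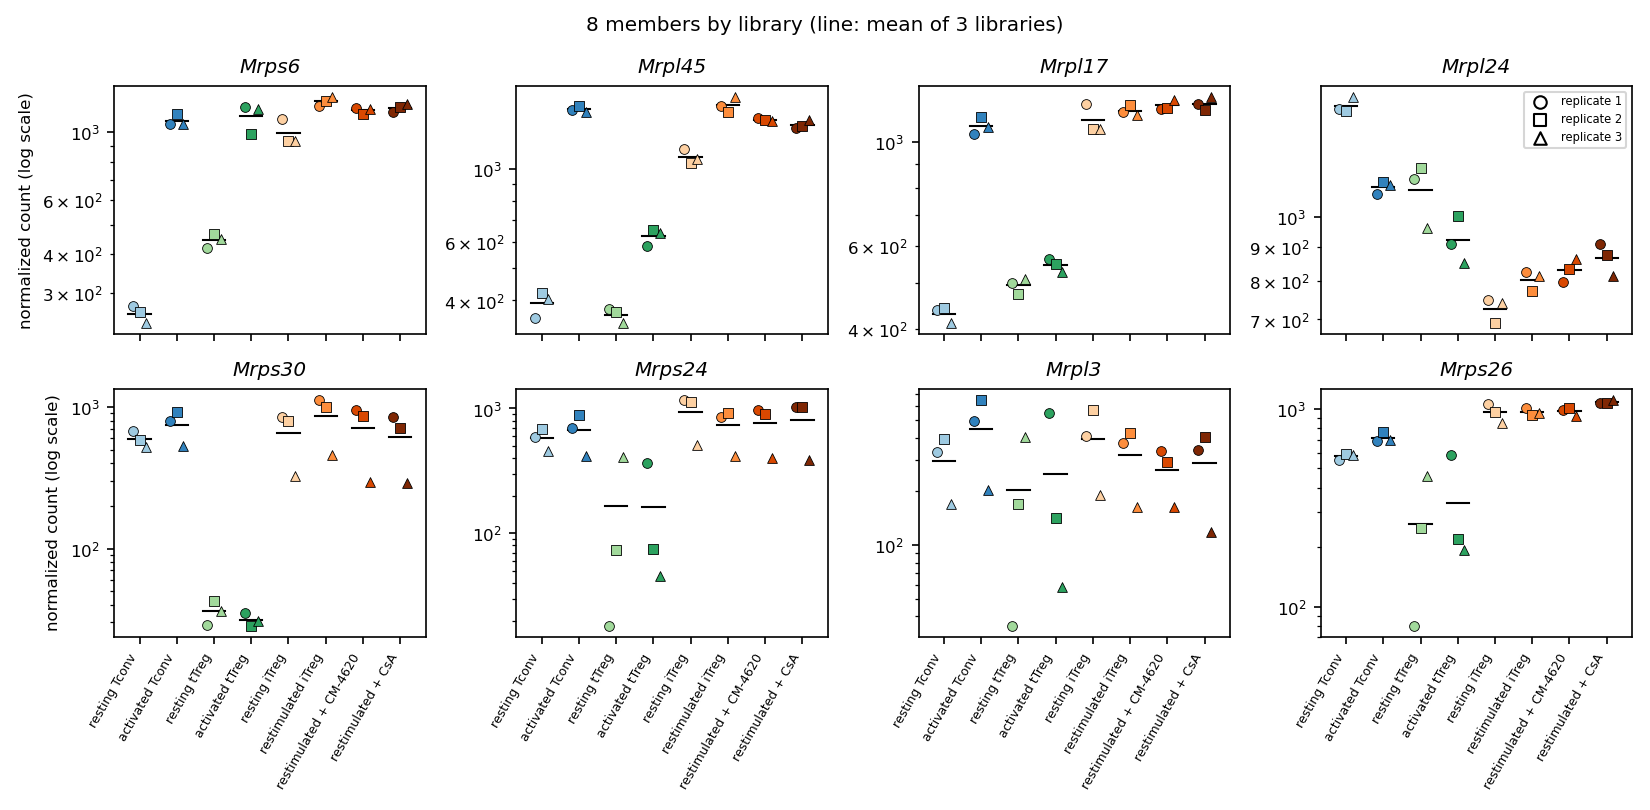
Normalized counts (log scale) of 8 members in each of the 24 libraries, with points shaped by replicate number and a line at the mean of 3 libraries. Mrps30 was low in all 6 tTreg libraries, Mrps24, Mrpl3 and Mrps26 spread widely among tTregs, and replicate 3 was low in all iTreg groups for Mrps30, Mrps24 and Mrpl3.

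Resting iTregs, which have been through activation during their induction, held more mRNA for most members than resting Tconvs did. Against resting Tconvs 56 were higher and 1 lower, where 34.0% and 30.3% of all genes tested were, with a median log2 difference of 0.77 (1.71-fold) against 0.04 over all genes. By role 12 of 15 and 7 of 11 small-subunit and 22 of 30 and 13 of 19 large-subunit proteins were higher. Mrps6 led, with 1105, 937 and 935 normalized counts in resting iTregs against 272, 259 and 239 in resting Tconvs, a log2 difference of 1.95 ± 0.08 (SE, adjusted p = 3.06e-15). Mrpl28, a conserved large-subunit protein, had 1594, 1579.9 and 1423 in iTregs and 459, 480.2 and 502 in Tconvs, with every iTreg library well above every Tconv library and a difference of 1.67 ± 0.07 (SE, adjusted p = 1.39e-15). Mrpl14 (1.62 ± 0.09), Mrpl51 (1.57 ± 0.13) and Mrpl45 (1.46 ± 0.07) followed. Of the members set by role, Mrpl12 (1.45), Mrps36 (1.16), Mrps12 (0.99), Mrpl11 (0.95), Mrpl10 (0.77), Mrps16 (0.77), Mrps18a (0.77), Mrps22 (0.74), Mrps18c (0.70) and Mrps18b (0.61) were higher. Mrps34 (1.02) was also called, and its libraries did not overlap between these groups. The call was lost without any single resting Tconv library, though the difference stayed at 0.97 to 1.07 on the log2 scale. The error of the fit is shared over all 8 groups, and the SD of Mrps34 was 1.15 within tTregs against 0.11 in the other cells. In Mrps34, 77.8% of the exon bases are shared with other genes. Mrpl58 (-0.33), Mrps5 (-0.13), Mrpl44 (-0.05), Mrpl3 (0.34) and Mrps30 (0.03) were not called.

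Mrpl24 was the 1 member lower in iTregs. It had 1458, 1445 and 1518 normalized counts in resting Tconvs and 748, 691 and 741 in resting iTregs, or 0.493 times as much, with no overlap and a log2 difference of -1.02 ± 0.08 (SE, adjusted p = 7.06e-11). Resting Tconvs were the highest group for this gene, activated Tconvs and resting tTregs overlapped below them, and activated tTregs overlapped with resting tTregs above and with iTregs below. Beside the rise of the members, 11 of the 13 mitochondrially encoded mRNAs were lower in resting iTregs than in resting Tconvs and 0 higher (median -0.84), led by mt-Atp6 (-1.22). Cytosolic ribosomal protein genes had 10 higher and 17 lower of 84 (median -0.22). Of the mitoribosomal proteins under other symbols 4 of 5 were higher, led by Chchd1 (1.31). Translation factors had 6 of 16 higher, led by Slirp (1.76) and Tsfm (1.52), and 1 lower. Assembly factors had 4 of 25 higher, led by Noa1 (1.37), and 5 lower, led by Mrm1 (-1.40). Of all genes tested 34.0% were higher and 30.3% lower, so neither list had a share of higher genes well above that of all genes. All 10 proliferation markers were higher, with a sum of 54676 normalized counts in resting iTregs against 3356 in resting Tconvs, and the part of cell division was not tested.

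Against resting tTregs, 59 members were higher in resting iTregs and 1 lower, where 33.3% and 30.7% of all genes tested were, with a median of 1.03 (2.04-fold) against 0.03. The largest differences were those of the members that were low in tTregs: Mrps30 (4.05 ± 0.44), Mrps24 (3.38 ± 0.79), Mrps26 (2.19 ± 0.40) and Mrps28 (1.86 ± 0.12), followed by Mrpl20 (1.78 ± 0.10), which had 1612, 1410.4 and 1234 normalized counts in iTregs and 413, 462 and 359.9 in tTregs. Left-out libraries or replicate numbers moved Mrps24 between 2.11 and 4.92 and Mrps26 between 1.42 and 2.83. Of the members set by role 12 of 16 were called, all higher, among them Mrps36 (1.61), Mrpl12 (1.58) and Mrps18b (1.45), while Mrpl44 (0.18), Mrpl58 (0.37), Mrps5 (0.44) and Mrpl3 (1.39) were not. Mrpl24 was lower (-0.59 ± 0.08), a difference of -0.49 and not called without replicate 2. After CPM scaling 44 were higher and 3 lower, under a scaling that put the median of all genes at -0.28 and the share of higher among all called genes at 38.3% in place of 52.0%. In this comparison 52 of 84 cytosolic ribosomal protein genes were higher too (median 0.59).

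Resting iTregs and activated Tconvs, in contrast, differed in 13 members, 6 higher and 7 lower in iTregs, where 24.2% and 18.4% of all genes tested were, with a median of 0.05. The split depended on the scaling: it was 3 higher and 9 lower after quantile normalization (2235 and 2913 of all genes, in place of 2836 and 2155), 4 and 10 in edgeR and 8 and 7 after CPM scaling. Mrpl28 was higher (0.82 ± 0.07), with 1594, 1579.9 and 1423 normalized counts in iTregs and 795, 905 and 911 in activated Tconvs, as were Mrpl53 (0.66), Mrpl20 (0.58), Mrpl51 (0.58) and Mrpl14 (0.56). Mrpl20 and Mrpl14 were not called after quantile normalization. Without replicate 1 Mrpl53, Mrpl20, Mrpl51 and Mrpl14 fell to between 0.44 and 0.48 and were not called. Mrpl53 shares 88.0% of its exon bases with other genes. Mrps31 (-0.78 ± 0.13), Mrps22 (-0.65 ± 0.11), Mrpl47 (-0.62 ± 0.12), Mrpl24 (-0.61 ± 0.08) and Mrpl48 (-0.60 ± 0.09) were lower. A share below the background does not show that the levels were equal: the 95% interval of the difference lay within 0.5 of 0 on the log2 scale for 40 of the 78. All 3 comparisons of resting iTregs use the same 3 iTreg libraries, and they share the Tconv and tTreg libraries with the comparisons above.

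Restimulation moved few members in the iTregs. With replicate number as a block, 2 of 78 members rose and 0 fell, where 6.88% of 11105 genes tested rose and 6.63% fell, and the median was 0.09 against -0.01. Mrpl1 had 399, 347 and 363 normalized counts in resting and 548, 549 and 545 in restimulated iTregs. Every restimulated library was higher, by 0.57 ± 0.08 (SE, adjusted p = 4.92e-05). Mrpl45 had 1144, 1039 and 1071 and then 1547, 1486 and 1640.2, also without overlap and with a change of 0.52 ± 0.06 (SE, adjusted p = 2.16e-06), close to the size limit that fell below it without replicate 3 (0.48) and after CPM scaling (0.50). Mrpl1 and Mrpl45 were also among the members whose response differed most between Tconvs and tTregs. Members with smaller changes in the test were Mrps30 (0.40 ± 0.08), Mrpl44 (0.35 ± 0.07) and Mrps24 (-0.34 ± 0.07). The 95% interval lay within 0.5 of 0 for 72 members. Of related genes 1 of the 16 listed translation factors rose (Mrrf, the recycling factor, 0.58). So did 2 of the 25 listed assembly factors (Nsun4 0.69, Mterf4 0.52) and 1 of the 17 listed synthetases (Wars2 0.61). These shares were near the 6.88% of all genes tested that rose. Of the 13 listed mitochondrially encoded mRNAs 3 fell, led by mt-Co3 (-0.78). The proliferation markers had a median of -0.34 (sum 45196 normalized counts after restimulation).

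Under CM-4620 no member was called in restimulated iTregs by limma, where 3.78% of all genes tested were called in either direction, and 10 members had an unadjusted p below 0.05. edgeR and DESeq2 also called 0. The differences ran from -0.35 in Mrps30 to 0.27 in Mrps18c, and the 95% interval lay within 0.5 of 0 for 77 of 78. Under CsA 1 member was called, where 3.35% of all genes tested were. This was Mrps30, with 1120.0, 998 and 456 normalized counts without inhibitor, 953, 869 and 297 with CM-4620 and 845, 713 and 293 with CsA. Its groups overlapped, with replicate 3 low in each of them, and within replicate numbers the log2 difference was -0.51 ± 0.08 (SE, adjusted p = 0.000379) under CsA and -0.35 ± 0.08 (SE, adjusted p = 0.00667) under CM-4620, the latter under the size limit. Without the block the adjusted p under CsA was 0.598, and without replicate 3 the size was -0.45, in both cases not called. The 95% interval under CsA lay within 0.5 of 0 for 75 of 78, the exceptions being Mrps30, Mrpl1 and Mrpl52 (0.46).

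Mrpl1, which rose on restimulation, had 548, 549 and 545 normalized counts without inhibitor, 436, 437 and 467 with CM-4620 and 351, 405 and 427 with CsA. Both inhibitor groups lay below the uninhibited libraries, with differences of -0.29 ± 0.08 and -0.48 ± 0.08 that missed the size limit (adjusted p = 0.0299 and 0.00116). For Mrpl45 the differences were -0.15 ± 0.06 and -0.20 ± 0.06. The inhibitor comparisons share the uninhibited libraries. Between CM-4620 and CsA directly no member was called, where 0.459% of all genes tested were, 6 members had an unadjusted p below 0.05, edgeR and DESeq2 called 0, and the interval lay within 0.5 of 0 for 77 of 78, the exception being Mrpl52 (-0.29, interval -0.51 to -0.06). For Mrpl1 this interval was 0.01 to 0.36, and for Mrps30 -0.00 to 0.32. Of related genes, Mrm1 fell by 0.54 under CM-4620, Wars2 fell by 0.50 under CsA, and mt-Co3 rose by 1.09 under CM-4620.

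**Figure D5:**
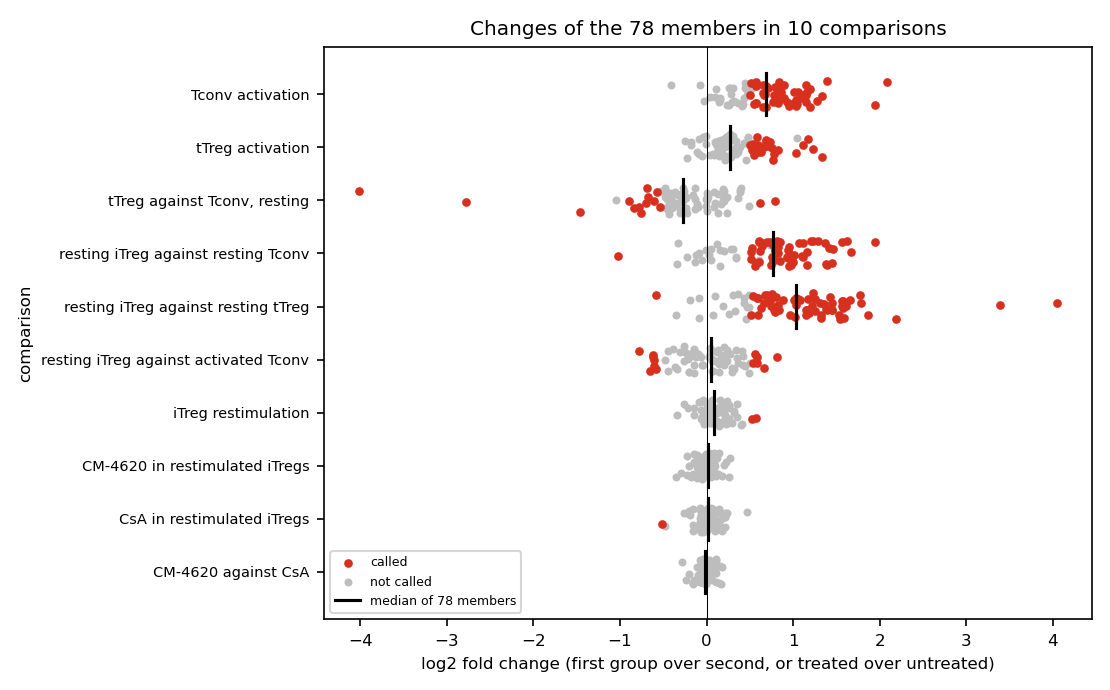
Log2 fold change of each of the 78 members (points, red where called) in 10 comparisons, with the median as a black line. Medians were 0.68 and 0.27 for activation of Tconvs and tTregs and 0.77 and 1.03 for resting iTregs against resting Tconvs and tTregs, and points cluster near 0 for restimulation and the inhibitors.

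A few members varied far more between libraries of 1 group than the rest did. The SD between replicates, pooled over the 8 groups on the log2 scale, had a median of 0.12 over the members and 0.17 over all genes tested, and 7 members (8.97%) exceeded 0.3, as did 27.9% of all genes tested. These 7 were Mrps24 (1.10), Mrpl3 (1.08), Mrps30 (0.61), Mrps34 (0.58), Mrps26 (0.55), Mrps35 (0.39) and Mrps15 (0.36), all but Mrpl3 with Mrps symbols. Only 0.759% of all genes tested varied more than Mrps24 and 0.81% more than Mrpl3. Among iTregs, a replicate was said to stand apart when it lay above both others, or below both, in all 4 groups, with a mean log2 deviation above 0.5. Replicate 3 did so in 3 of 78 members, always below, a share near the 2.65% of 11105 genes tested that stood apart this way. Replicate 1 did so in 1 member (0.27% of genes tested) and replicate 2 in none (0.63%).

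The 3 members low in replicate 3 were Mrps30 (-1.39), Mrpl3 (-1.29) and Mrps24 (-1.22), and Mrps30 was also the member high in replicate 1 (0.82). Mrpl3, a large-subunit protein that reaches toward the site of peptide bond formation (chr9:105053239-105079888, GRCm38), had 410.0, 574 and 190.4 normalized counts in resting iTregs, 373, 422 and 164 after restimulation, 339, 292 and 164 with CM-4620 and 339, 402 and 119 with CsA. Replicate 3 was the lowest of each trio. The same held in Tconvs, with 333, 391 and 169 at rest and 496, 649 and 204 after activation. For Mrps24 the iTreg values were 1169, 1124 and 506 at rest, 851, 927 and 417 after restimulation, 970.2, 907 and 404 with CM-4620 and 1022, 1023 and 387 with CsA, and replicate 3 was again lowest in both Tconv groups, with 420 after activation. Resting tTregs went the other way: Mrpl3 had 35.4, 170.0 and 405 at rest and 551, 142 and 58.1 after activation, so that replicate 3 was highest at rest and lowest after activation.

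In tTregs the spread reached further members, and it was not limited to members. Averaged over genes, the variance between replicate pairs was 12.7 to 36.3 times that of counting alone in tTregs. It was 3.01 to 9.35 times in Tconvs and 2.69 to 16.4 times in iTregs, highest in resting iTregs. The fit over 24 libraries shares its error over all groups, so errors given for tTregs may be too small. Mrps34 had 95.2, 644 and 575 at rest and 1032, 585 and 521 after activation, Mrps35 229.5, 703 and 909 and 1003, 761 and 946, and Mrps26 79.8, 250.4 and 457 and 586, 220.4 and 193. Replicate 1 was the lowest of the resting and the highest of the activated tTreg libraries in each, as it was for Mrps24, Mrpl3 and Mrps15. Replicate 1 of the resting tTregs was the lowest of all 24 libraries for 12 members. Within tTregs the pooled SD was 1.15 for Mrps34, 1.09 for Mrps26 and 0.76 for Mrps35, against 0.11, 0.09 and 0.08 in the other cells, so these members were steady elsewhere, whereas Mrps30 varied less within tTregs (0.22) than in the other cells (0.69). The origin of these differences was not tested.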

How the data were processed

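The 24 RNA-seq libraries come from polyadenylated mRNA of sorted or cultured mouse T cells, amplified by SMART-seq2, which does not keep the strand, so reads of overlapping genes cannot be told apart. Per the submitters' processing notes the reads were trimmed with cutadapt 1.18, aligned to mm10 (GRCm38) with STAR 2.5.3, counted with RSEM 1.3.0 and scaled with DESeq2 1.26. The deposited values are a normalized signal, which the authors made as gene counts divided by 1 size factor per library. Whole reads were recovered from them (tolerance 0.001 reads) and used for depth and for count tests. The other experiments of the series were not analysed here.

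The members and lists were chosen with earlier results of these data known. limma 3.58.1 (R 4.3.3) was fitted to log2(value + 1), with a trended prior variance, after genes had been kept whose value reached 10 in 3 or more libraries: 11725 genes over 24 libraries without a block for comparisons across cell types, and 11105 genes over the 12 iTreg libraries with replicate number as a block for the iTreg comparisons. Fold changes are on that scale, adjusted p-values are Benjamini-Hochberg values over all genes tested, and intervals are 95%. Floors cover counting error only. edgeR 4.0.16 and DESeq2 1.42.0 on the recovered reads, other scalings, pseudocounts, filters, thresholds, and left-out libraries served as alternatives. The fits were tested on simulated data.

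Members named are, per comparison, the 5 largest rises and falls among called members whose libraries do not overlap, a set of 16 chosen for their roles, those that set an iTreg replicate apart, the 5 highest and lowest per length, and the most and least alike pairs. Members with wide spread were named after their values were seen, as were Mrpl9, Mrpl38 and Mrpl52. Of related genes the up to 3 largest called changes each way could be named. Positions, exon overlaps and lengths are from GENCODE M21 (GRCm38), which is older than the release the authors used, and promoters from RefSeq (GRCm38.p6). Figures were drawn with matplotlib 3.10.9.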

Additional observations from a re-analysis of the deposited data

Results flagged for a closer look

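The activation response differed between Tconvs and tTregs, by the interaction test in limma, for 27 members. Named members that responded more in Tconvs were Mrpl17 (1.19 on the log2 scale), Mrpl19 (1.16), Mrpl45 (1.16), Mrpl1 (1.15), Mrps2 (1.05), Mrps22 (0.73), Mrpl12 (0.68), Mrps18b (0.64), Mrpl11 (0.52) and Mrps18c (0.52), and Mrpl58 responded more in tTregs (-0.57). Of these, Mrps22, Mrpl12, Mrps18b, Mrpl11, Mrps18c and Mrpl58 lost their call when some single library or replicate number was left out. Groups of 3 libraries are too small for a test of single outlying libraries.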

How the results depend on the processing

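Counts of called members are given here in the order activation of Tconvs (52), activation of tTregs (23), difference of responses (27), tTregs against Tconvs at rest (15), resting iTregs against resting Tconvs (57), resting tTregs (60) and activated Tconvs (13), restimulation (2), CM-4620 (0), CsA (1) and CM-4620 against CsA (0). edgeR called 54, 20, 31, 15, 54, 58, 14, 2, 0, 1 and 0, and DESeq2 52, 22, 27, 14, 57, 60, 14, 2, 0, 1 and 0. Leaving out 1 library or replicate number gave 48 to 53, 19 to 27, 21 to 33, 16 to 21, 54 to 57, 57 to 66, 10 to 15, 1 to 3, 0 to 0, 1 to 2 and 0 to 0. With adjusted p alone the counts were 40 for activation of tTregs (4677 of all 11725 genes), 43 for the difference of responses (5138), 51 for tTregs against Tconvs (6407), 36 for iTregs against activated Tconvs (6849), 20 for restimulation (3805 of 11105), 3 for CM-4620 (1169) and 6 for CsA (1336). With a log2 change above 1 they were 19, 5, 5, 3 and 21 for the first 5 comparisons, and 0 for iTregs against activated Tconvs, restimulation and CsA. After CPM scaling they were 15 for activation of tTregs and 1 for restimulation, and the summed levels relative to resting Tconvs became 1.01 for resting and 1.20 for activated tTregs, 1.48 for activated Tconvs, and 1.65, 1.66 and 1.68 for iTregs restimulated alone, under CM-4620 and under CsA.

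A replicate block gave the same counts in the 7 comparisons across cell types (52, 23, 27, 15, 57, 60 and 13). Without the replicate block CsA called 0, as it did in a fit of all 24 libraries with the replicate block for iTregs (adjusted p for Mrps30 0.115). The numbers were not shown to pair the samples in every group: iTreg libraries of the same number had deviations correlated by -0.04 to 0.30 (10 of 18 pairs over 0.1, against a mean of -0.08 for different numbers), with all 6 pairs of replicate 3 at 0.21 to 0.30, Tconvs by 0.08 to 0.18 and tTregs by -0.48 to -0.16. Of the alternatives for named members, 4772 kept the same call status, 61 gained and 133 lost the call. Where either fit called the member, 0 reversed in sign. Members called in neither fit could change sign within the 4772. Mrpl3 did so in tTreg activation, at -1.52 to 1.83 over left-out libraries or replicate numbers. With 3 libraries per group, the median half-width of the intervals over 24 libraries was 0.20 on the log2 scale for differences of 2 groups. It was 0.29 for the difference of responses and 0.16 in the iTreg fit. Smaller changes could not be told from 0 for most members, and a call also needed a size above 0.5, so larger changes could be missed too. Mrps30 rested on as few as 17 reads.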
